A study of Mus musculus with 4 samples.

Results

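The Schlafen genes are a family of 7 measured members in these data (Slfn1, Slfn2, Slfn3, Slfn4, Slfn5, Slfn8 and Slfn9), out of 19938 genes measured in mouse leukemia stem cells. They were chosen by symbol, and where a gene has several probe sets the one with the highest mean level stands for it. All 7 had a single probe set, so that choice used no value in practice. The study compared Hif1a-/- with WT leukemia stem cells. Hif1a encodes the subunit of HIF-1, a transcription factor of the hypoxia response, whose stability depends on oxygen. There were 2 arrays of Hif1a-/- and 2 of WT cells, and both genotypes were labelled C57BL/6 (B6) and 8 weeks of age. In both, donor marrow from mice treated with 5-fluorouracil was infected with a retrovirus that carries BCR-ABL, the fusion kinase of chronic myeloid leukemia, together with GFP, and was given to B6 recipients. All cells of both genotypes therefore carry BCR-ABL. Marrow was taken 14 days after transplantation and sorted for GFP-positive, lineage-negative cells with c-Kit and Sca-1. The labels do not say how Hif1a was deleted, which exons were lost, or whether marrow of several recipients was pooled, and they call the arrays biological replicates with no word on separate animals. The p-values below therefore measure only the spread between these samples, which may be technical.

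Schlafen proteins share an N-terminal core and are sorted by length. Slfn1 and Slfn2 are short, Slfn3 and Slfn4 are intermediate, and Slfn5, Slfn8 and Slfn9 are long forms with a helicase-like domain that the others lack. The family is known for holding lymphocytes and monocytes in quiescence, for acting on tRNA and on virus replication, and for induction by interferon and by myeloid activation. In the mouse the genes lie side by side on chromosome 11 with a further long form, Slfn14, whose expression was not analysed here, and with Slfn10-ps, annotated under the name of a pseudogene.

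Promoter sequences from RefSeq (GRCm38.p6, 250 bases before to 50 after the start of the gene) are shown first because the members fell into 2 sequence groups. All 7 members had an entry, and Slfn8 had a pair of overlapping ones, which makes 8 windows. The core of the interferon-stimulated response element, searched on either strand as GAAA, any 2 bases and GAAA again, was present in the windows of Slfn5, Slfn8 and Slfn9, the 3 long members, and in 3.44% of 32851 promoters of the same length. The window of Slfn14, a long form outside the members, held neither this core nor the run described next. The response element core is shown in capitals with its flanks, as the motif or its reverse complement, 5′ to 3′ on the strand of the gene.
Slfn5, chr11:82951932-82951971, plus strand: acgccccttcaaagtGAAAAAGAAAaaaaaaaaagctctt
Slfn8, chr11:83020834-83020873, minus strand: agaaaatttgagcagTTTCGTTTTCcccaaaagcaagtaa
Slfn9, chr11:82991851-82991890, minus strand: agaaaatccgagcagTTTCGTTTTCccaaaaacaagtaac

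The windows of the 4 short and intermediate members held no match to that core. They shared another run, ACTTCCTGG, which holds the GGAA core of ETS factor sites on its opposite strand. This run was picked after the sequences had been seen, and it was present on either strand in 0.843% of the same promoters. The capitals below mark it.
Slfn1, chr11:83116731-83116769, plus strand: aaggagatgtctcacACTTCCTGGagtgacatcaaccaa
Slfn2, chr11:83065042-83065080, plus strand: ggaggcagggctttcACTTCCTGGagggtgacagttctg
Slfn3, chr11:83191273-83191311, plus strand: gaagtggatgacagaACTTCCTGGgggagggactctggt
Slfn4, chr11:83175098-83175136, plus strand: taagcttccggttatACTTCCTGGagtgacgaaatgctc

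The first windows of Slfn8 and Slfn9 matched at 80.8% of 312 aligned positions, while every other pair of windows among the Schlafen genes matched at 54.6% or less. That 54.6% came from the overlapping windows of Slfn8 itself, and Slfn9 matched the second window of Slfn8 at 47.8%. The identity thus depends on where a window starts, and a low value does not show that windows are unrelated. The first windows of Slfn8 and Slfn9 are printed whole as the closest pair, with the match to the response element core in capitals. Likeness of promoters does not show how well an array can tell the transcripts apart. The probe sequences were not used here, and whether a probe set reads more than 1 paralog was not tested.
Slfn8, chr11:83020761-83021060, minus strand: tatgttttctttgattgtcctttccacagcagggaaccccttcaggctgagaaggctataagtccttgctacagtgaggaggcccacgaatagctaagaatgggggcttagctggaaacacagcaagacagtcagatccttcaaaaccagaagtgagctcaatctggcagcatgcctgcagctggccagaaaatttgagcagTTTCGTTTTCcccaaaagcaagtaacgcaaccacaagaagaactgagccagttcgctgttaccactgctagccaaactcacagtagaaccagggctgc
Slfn9, chr11:82991781-82992080, minus strand: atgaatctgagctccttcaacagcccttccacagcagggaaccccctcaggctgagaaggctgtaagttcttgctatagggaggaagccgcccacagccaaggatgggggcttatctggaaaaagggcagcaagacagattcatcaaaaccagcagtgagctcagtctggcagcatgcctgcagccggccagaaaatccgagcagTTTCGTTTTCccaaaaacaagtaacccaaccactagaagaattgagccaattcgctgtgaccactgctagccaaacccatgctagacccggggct
The interferon-gamma element TTCNNNGAA (8.3% of promoters) and the hypoxia response cores ACGTG (19.6%) and GCGTG (32.4%), each searched on both strands, had no match in the 8 windows. The response element core and ACTTCCTGG did not overlap in any window.

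On the arrays, the largest difference in the family was not between genotypes but between the WT arrays. Slfn1 and Slfn4 were 5.35-fold and 4.43-fold higher on WT replicate 1 than on WT replicate 2, and Slfn2 and Slfn5 were 1.81-fold and 1.63-fold higher. Both Hif1a-/- arrays lay between the WT arrays for these 4 genes, for Slfn5 only narrowly. Its log2 level was 9.094 on Hif1a-/- replicate 2 and 9.092 on WT replicate 2. Slfn8 alone had a difference between genotypes that exceeded the spread within each genotype by its unadjusted p, and it was lower in Hif1a-/- cells. All values that follow are log2 RMA expression or differences on that scale, Hif1a-/- minus WT, and a level is not compared between genes.

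Among the short members, Slfn1, which slows the growth of mouse T-lineage cells when it is forced on, read 9.77 and 9.78 on Hif1a-/- replicates 1 and 2, against 11.48 and 9.06 on WT replicates 1 and 2. The Hif1a-/- arrays were nearly equal, and the WT arrays lay far above and below them. The difference between genotypes was -0.49 (95% interval -2.13 to 1.15, unadjusted limma p 0.498). Slfn2, whose loss in mice makes T cells and monocytes leave quiescence, read 10.14 and 10.09 on the Hif1a-/- arrays, against 10.71 and 9.85 on the WT arrays. The order of the arrays was that of Slfn1 but for the close Hif1a-/- pair, over a narrower range. Its difference between genotypes was -0.17 (95% interval -0.81 to 0.47, unadjusted limma p 0.554).

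The intermediate members went apart from each other. Slfn4, which is induced by interferon in macrophages and marks myeloid cells in the inflamed mouse stomach, read 10.47 and 10.45 on the Hif1a-/- arrays, against 11.73 and 9.58 on the WT arrays. It kept the pattern of Slfn1, with close Hif1a-/- arrays between distant WT arrays. The difference was -0.19 (95% interval -1.66 to 1.27, unadjusted limma p 0.762). Slfn3, which has been studied in the differentiation of rodent gut epithelium, read 9.99 and 9.74 on the Hif1a-/- arrays, against 9.68 and 10.08 on the WT arrays. Here WT replicate 1 was the lowest of the 4 arrays and WT replicate 2 the highest, the opposite of Slfn4. Both genes share the ACTTCCTGG run, whose part in their levels was not tested. Slfn3 differed by -0.02 between genotypes (95% interval -0.45 to 0.41, unadjusted limma p 0.914).

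The long members were lower on average in Hif1a-/- cells, each in its own way. Slfn8 read 8.88 and 8.78 on the Hif1a-/- arrays, against 9.29 and 9.18 on the WT arrays. The groups did not overlap, and replicate 2 minus replicate 1 was -0.10 in Hif1a-/- and -0.11 in WT cells. The difference was -0.41 ± 0.13 (SE), or 1.33-fold lower in Hif1a-/- cells (95% interval -0.71 to -0.11, unadjusted limma p 0.0158). Slfn9 read 9.29 and 9.30 on the Hif1a-/- arrays, against 9.31 and 9.73 on the WT arrays. Its groups were apart only by the small gap between Hif1a-/- replicate 2 and WT replicate 1, and the difference was -0.23 (95% interval -0.63 to 0.17, unadjusted limma p 0.218). Slfn5, a nuclear protein induced by interferon, read 9.18 and 9.09 on the Hif1a-/- arrays, against 9.80 and 9.09 on the WT arrays. WT replicate 1 stood above the other arrays, WT replicate 2 lay level with Hif1a-/- replicate 2, and the difference was -0.31 (95% interval -0.86 to 0.25, unadjusted limma p 0.227).

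**Figure D1:**
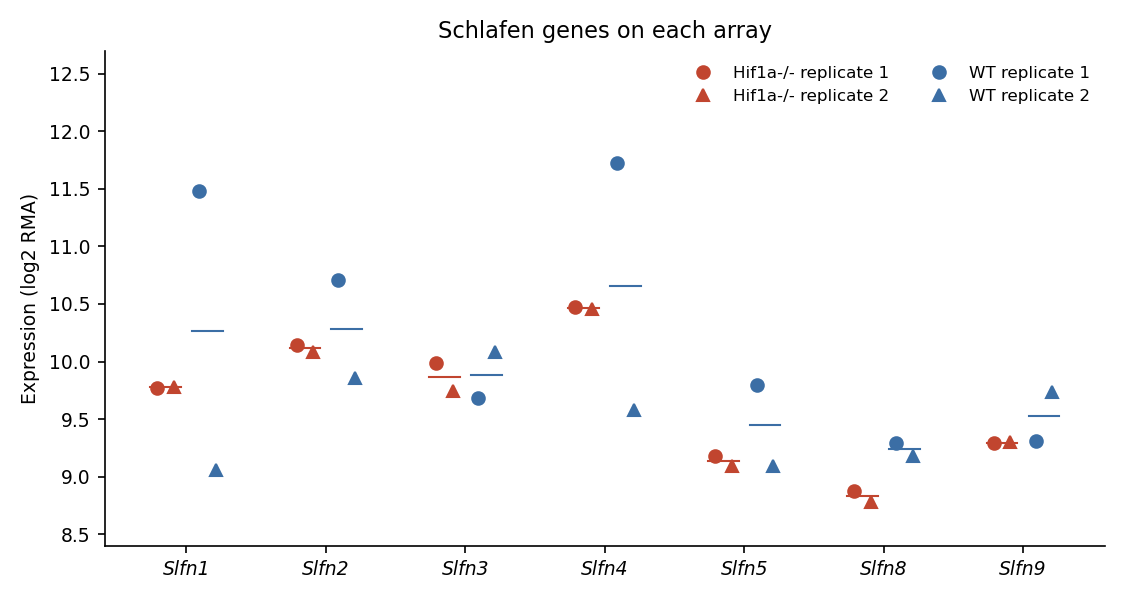
Log2 RMA expression of the 7 Schlafen genes on each array, with Hif1a-/- in red left of WT in blue, circles for replicate 1, triangles for replicate 2 and a line at each genotype's mean. WT replicate 1 stands high for Slfn1 (11.48) and Slfn4 (11.73) with the Hif1a-/- arrays between the WT arrays, and the groups are clearly apart only for Slfn8.

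Read over the family, all 7 members had a lower mean in Hif1a-/- cells, where 38.6% of all genes did. The median difference was -0.23 over the members and 0.03 over all genes. The groups were apart in 2 members, Slfn8 and Slfn9, with Hif1a-/- lower, as in 9.05% of all genes, and in 0 members with Hif1a-/- higher, as in 15.7%. By limma fitted over all 19938 genes with Benjamini-Hochberg adjustment, 0 members passed 0.05, and the adjusted p was 0.999 for every member. Over all genes 0 passed as well (0%), while 334 (1.68%) had an unadjusted p under 0.05, among them 1 member, Slfn8. On the lower side that share was 0.978% of all genes.

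The direction of most members depended on which WT array was kept. In fits without WT replicate 1, Slfn1 was 0.72 higher in Hif1a-/- cells with an adjusted limma p of 0.00521, and Slfn4 was 0.88 higher with 0.00117. Without WT replicate 2, Slfn1 differed by -1.70 with an adjusted limma p of 7.96e-07, and Slfn4 by -1.27 with 1.08e-05, both lower in Hif1a-/- cells. Both genes thus passed the threshold in opposite directions. In each such fit the lone WT array is assumed to vary as the Hif1a-/- pair does, and 0.502% of all genes were called higher without WT replicate 1 and 3.03% lower without WT replicate 2. Of the 7 members, 2 were called higher in the first fit and 5 lower in the second. Without WT replicate 1, both Hif1a-/- arrays lay under the remaining WT array in 3 members (32.3% of all genes) and over it in 4 (43%). Without WT replicate 2, they lay under it in 6 members (30.7%) and over it in 1 (42.5%). Slfn2 (0.26 and -0.59) and Slfn5 (0.05 and -0.66) turned in the same way, without WT replicate 1 and without WT replicate 2, and were called only in the second case, with adjusted limma p of 0.00939 and 0.00470. Slfn3 turned the other way (-0.22 and 0.18) and was called in neither. Slfn8 stayed between -0.35 and -0.47 whichever array was left out, and was called only without WT replicate 2, at an adjusted limma p of 0.0399. Slfn9 was at -0.44 without WT replicate 1 and at -0.02 without WT replicate 2.

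**Figure D2:**
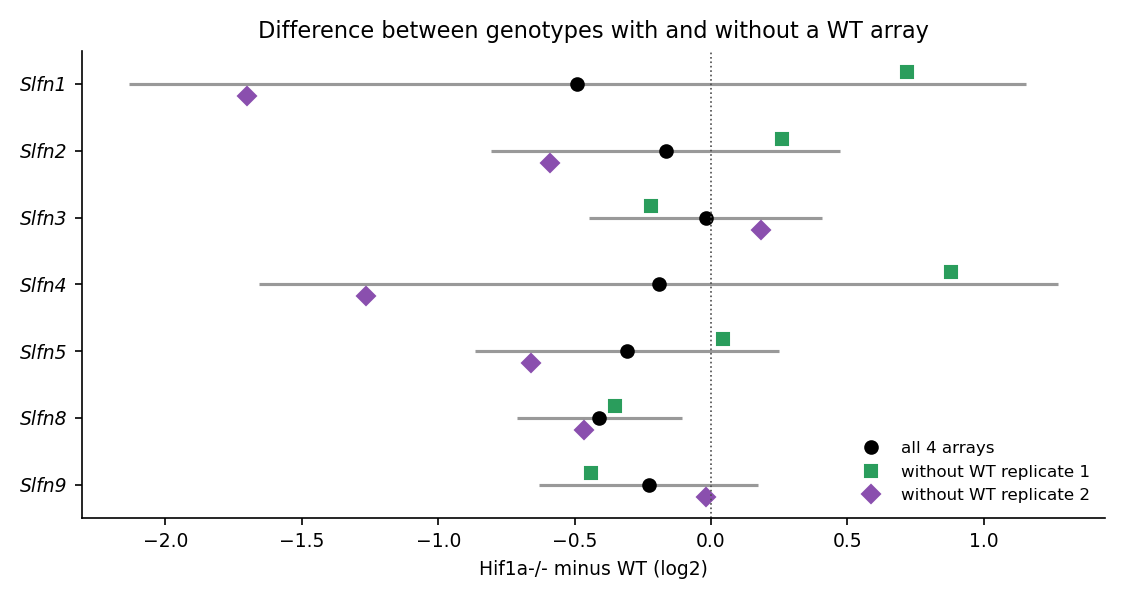
Difference between genotypes for each Schlafen gene in log2 units, Hif1a-/- minus WT, with all 4 arrays (black circles, grey 95% interval), without WT replicate 1 (green squares) and without WT replicate 2 (purple diamonds). Slfn1 goes to 0.72 and -1.70 and Slfn4 to 0.88 and -1.27 when a WT array is dropped, and Slfn8 and Slfn9 stay below 0 in all 3 fits.

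Within a genotype, the spread of the members was set by the WT pair. WT replicate 2 minus WT replicate 1 was -2.42 for Slfn1 and -2.15 for Slfn4, the 9th and 21st largest absolute differences of the 19938 genes. Slfn2 (-0.85) and Slfn5 (-0.71) stood at ranks 566 and 983. Slfn9, Slfn3 and Slfn8 differed by 0.42, 0.40 and -0.11. Differences of at least 2-fold, 1 on the log2 scale, were found in 2 of the 7 members on the side of WT replicate 1, where 0.923% of all genes had one, and in 0 on the side of WT replicate 2, against 0.888%. The Hif1a-/- arrays differed by at most 0.25 in any member, in Slfn3, and by 0.01 and -0.02 in Slfn1 and Slfn4. A difference of 2-fold between them was found in 0 members, against 0.0401% of all genes on the side of Hif1a-/- replicate 1 and 0.125% on that of replicate 2. The typical gene also differed less between the Hif1a-/- arrays, with a median absolute difference of 0.107, against 0.193 between the WT arrays. In 5 members both Hif1a-/- arrays lay between the WT arrays, beside 32.9% of all genes, and in 4 of these (Slfn1, Slfn2, Slfn4 and Slfn5) WT replicate 1 was the highest array, beside 14.8%. Slfn5 is in both counts by a narrow margin (9.094 on Hif1a-/- replicate 2 against 9.092 on WT replicate 2).

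**Figure D3:**
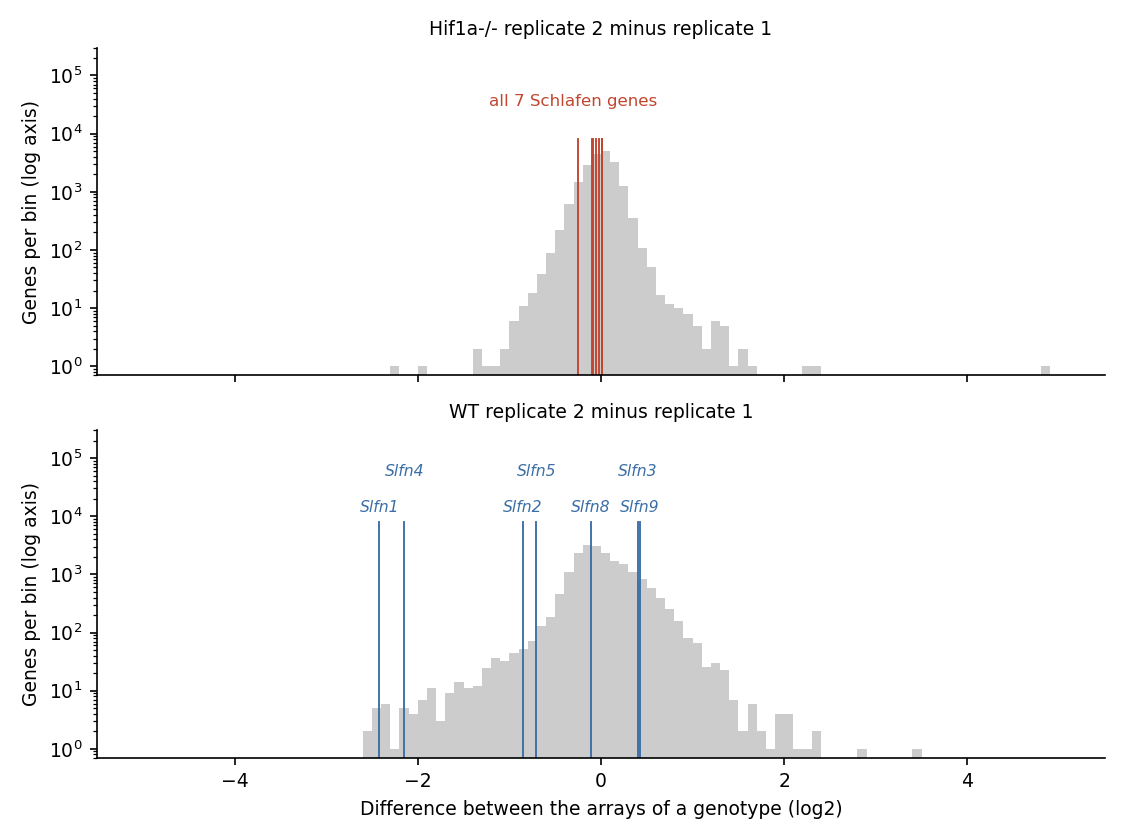
Distribution over 19938 genes of the difference between the arrays of a genotype in log2 units, for Hif1a-/- above and WT below, with gene counts on a log axis and vertical lines at the 7 Schlafen genes. The members lie within 0.25 of 0 between the Hif1a-/- arrays, while Slfn1 (-2.42) and Slfn4 (-2.15) lie in the far left tail between the WT arrays.

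The members thus fell into patterns over the 4 arrays, which are given as the root mean square distance between profiles centred on each gene's mean. Slfn1 and Slfn4 were 0.178 apart, Slfn2 and Slfn5 0.0884, and Slfn3 and Slfn9 0.138. Slfn10-ps lay 0.0674 from Slfn9 and 0.0722 from Slfn3, while Slfn1 and Slfn3 were 1.03 apart. Within the ACTTCCTGG group Slfn2 was 0.455 from Slfn3, 0.458 from Slfn4 and 0.578 from Slfn1. Slfn8 was 0.216 from Slfn5 and 0.213 from Slfn9, which were 0.402 from each other. Slfn10-ps read 9.16 and 9.06 on the Hif1a-/- arrays, against 9.02 and 9.43 on the WT arrays. It differed by -0.12 between genotypes, with groups that overlapped.

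Over the same 4 arrays, the genes closest to the mean profile of the members were Tmem51 (distance 0.0120), Cd84, a receptor of the SLAM family (0.0155), Cideb, a lipid droplet protein (0.0191), Jak2, a kinase of cytokine receptors (0.0247), and Ddx58, a sensor of viral RNA (0.0264). The genes closest to Slfn1, the member with the widest range, were Mmp9, a gelatinase of neutrophil granules (0.0984), Scrg1 (0.149), Ceacam10 (0.153), Ly6g, the surface antigen of mouse granulocytes (0.160), and Stfa3, a stefin (0.171). Ly6g read 11.74 and 11.64 on the Hif1a-/- arrays, against 13.10 and 10.64 on the WT arrays, and Mmp9 read 11.04 and 11.14, against 12.58 and 10.22. With 4 arrays many genes can have a like profile, and these distances are descriptions.

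Genes of the interferon response showed the split of the WT arrays seen in Slfn1, Slfn2, Slfn4 and Slfn5. Of 27 measured interferon-stimulated genes, 26 were higher on WT replicate 1 than on WT replicate 2, as were 54.5% of all genes, with a median of -0.75 for replicate 2 minus replicate 1. In 19 of them both Hif1a-/- arrays lay between the WT arrays with WT replicate 1 highest, beside 14.8% of all genes. Ifit1, an inhibitor of viral translation, read 10.82 and 10.34 on the Hif1a-/- arrays, against 11.61 and 9.48 on the WT arrays. Between genotypes the mean of 20 genes was lower in Hif1a-/- cells and that of 7 higher, where 38.6% of all genes were lower. The median difference of the list was -0.09, against 0.03 over all genes, and 0 passed the adjusted limma test. Cxcl10, a chemokine, had the largest difference, 0.81 higher in Hif1a-/- cells (adjusted limma p 0.999), the opposite of the Schlafen members. Parp14 (-0.29) and Trim30a (-0.29) followed, and their groups overlapped.

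Of 14 measured receptors and signalling genes of the interferon pathway, 12 were lower and 2 higher by their means in Hif1a-/- cells. Of all genes, 38.6% were lower. The median difference was -0.16, against 0.03 over all genes, and 0 passed the adjusted limma test. The WT arrays split here too, as 12 of the 14 were higher on WT replicate 1 than on WT replicate 2, beside 54.5% of all genes. Irf7, the master regulator of type I interferon genes, read 10.56 and 10.56 on the Hif1a-/- arrays, against 11.36 and 10.10 on the WT arrays. The largest differences were -0.42 for Irf1, an activator of interferon-gamma targets, -0.26 for Jak2 and -0.22 for Ifnar2, a chain of the type I interferon receptor. Ifnar2 was the one of these 3 whose groups did not overlap.

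Markers of granulocytes and monocytes differed between the WT arrays in both directions, and 4 sort and progenitor markers were lower on WT replicate 1. Of 14 measured granulocyte and monocyte markers, 10 were higher on WT replicate 1, beside 54.5% of all genes. Of the 14, 6 were higher there by at least 2-fold, beside 0.923% of all genes. The mean level of the list was 11.91 and 11.90 on the Hif1a-/- arrays, against 12.30 and 11.62 on the WT arrays. The late granule gene Ltf, named after its values were seen, differed by -2.05 between the WT arrays, replicate 2 minus replicate 1. Higher on WT replicate 2 were 4 markers, Mpo (0.70) and Elane (0.34), of early granules, Ms4a3 (0.52) and Csf1r (0.36), the last 3 named after their values were seen. Between genotypes the largest differences of the list were -0.87 for Ccr2, a chemokine receptor of monocytes and the 1 marker whose groups were apart, -0.32 for Cd68 and 0.23 for Mpo. The mean of the 4 sort and progenitor markers (Kit, Cd34, Slamf1 and Cd48), of which Kit was used in the sort, was 10.44 and 10.60 on the Hif1a-/- arrays, against 9.91 and 10.97 on the WT arrays. Cd34 read 10.70 and 11.70 on the Hif1a-/- arrays, against 10.31 and 12.29 on the WT arrays, and Kit, the sort's own antigen, was lowest on WT replicate 1 (10.95 and 10.61 in Hif1a-/- cells, against 10.32 and 11.07 in WT cells). The gene of Sca-1, Ly6a, was not analysed here. Between genotypes Slamf1, Cd34 and Cd48 differed by 0.42, -0.11 and -0.09, with groups that overlapped. In such bulk samples, fewer cells of a type and less RNA per cell cannot be told apart. The part of these markers in the values of the Schlafen genes was not tested.

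Markers of other cells gave other shifts. Mean levels were 7.77 and 7.76 on the Hif1a-/- arrays, against 7.85 and 7.65 on the WT arrays, for 10 T and NK cell markers. For 6 B cell markers they were 8.27 and 8.04, against 8.68 and 7.93, and this mean was also highest on WT replicate 1. Vpreb1 and Ms4a1 in that list, named after their values were seen, were instead highest on a Hif1a-/- array. The largest differences between genotypes were -0.30 for Il2rb, 0.18 for Cd4 and -0.10 for Ncr1 among the first, and -0.69 for Ebf1, -0.19 for Cd79b and -0.15 for Cd79a among the second. Of these, Il2rb, Cd4 and Cd79b had groups that were apart. Il2rb, Cd4 and Ncr1 were dim, with mean levels at percentiles 30, 23.8 and 12.5 of all genes. The 7 dendritic cell markers averaged 8.65 and 8.65 on the Hif1a-/- arrays, against 8.93 and 9.16 on the WT arrays, lower in Hif1a-/- cells as Slfn8 was. The groups were apart in 4 of these 7 with Hif1a-/- lower, beside 9.05% of all genes, among them Xcr1 (-0.82), Clec9a (-0.75) and Irf8 (-0.59), genes of cross-presenting dendritic cells, and in 1 with Hif1a-/- higher, Siglech (0.19), beside 15.7%. Siglech marks plasmacytoid dendritic cells and was named after its values were seen. The 6 erythroid markers averaged 10.38 and 10.26 on the Hif1a-/- arrays, against 9.99 and 9.85 on the WT arrays. In 4 of the 6 the groups were apart with Hif1a-/- higher, beside 15.7% of all genes. Rhag (0.84), Epor (0.68) and Tfrc (0.36) were among these 4. The groups of Alas2 and Slc4a1, both named after their values were seen, overlapped. The 6 stromal and endothelial markers averaged 8.60 and 8.69 on the Hif1a-/- arrays, against 8.76 and 8.65 on the WT arrays, with differences of -0.40 for Pecam1, 0.10 for Col3a1 and -0.08 for Kdr. None of the markers in these lists passed the adjusted limma test. The part of these markers in the values of Slfn8 was not tested. The targeted gene, Hif1a, read 11.25 and 11.39 on the Hif1a-/- arrays, against 11.34 and 11.50 on the WT arrays, with groups that overlapped and a difference of -0.09 (95% interval -0.42 to 0.23). The direction of every difference therefore rests on the labels. A probe set outside the deleted part would not check them.

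**Figure D4:**
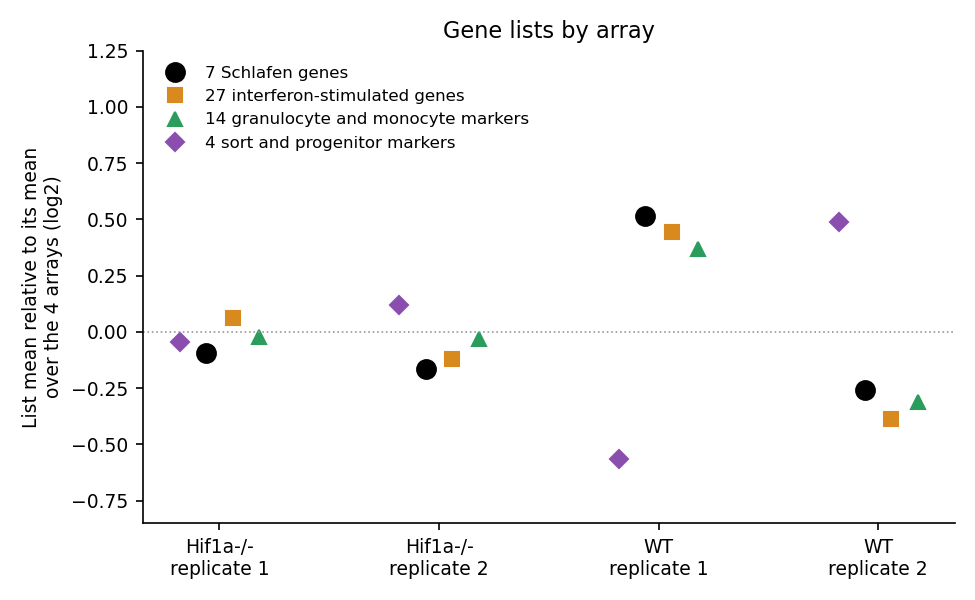
Mean of each gene list on each array, relative to its mean over the 4 arrays in log2 units, for the 7 Schlafen genes, 27 interferon-stimulated genes, 14 granulocyte and monocyte markers and 4 sort and progenitor markers. The means of the Schlafen, interferon and granulocyte lists are highest on WT replicate 1 (0.52, 0.45 and 0.37). They are lowest on WT replicate 2 (-0.26, -0.39 and -0.31), and the sort markers run the other way (-0.57 and 0.49). The Schlafen mean does not hold for each member. Slfn3 and Slfn9 are highest on WT replicate 2, and Slfn8 is lower on both Hif1a-/- arrays than on either WT array.

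Along chromosome 11 the difference between the WT arrays changed direction several times, while Slfn2, Slfn1 and Slfn4 formed a run of the same direction. The difference of Slfn8 (-0.11) was under the median absolute difference between the WT arrays, 0.193 over all genes. In the order of the cluster, WT replicate 1 was the higher WT array for Slfn5, the lower for Slfn9, the higher for Slfn8, the lower for Slfn10-ps, the higher for Slfn2, Slfn1 and Slfn4, and the lower for Slfn3. The difference between genotypes was below 0 for each of them.

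**Figure D5:**
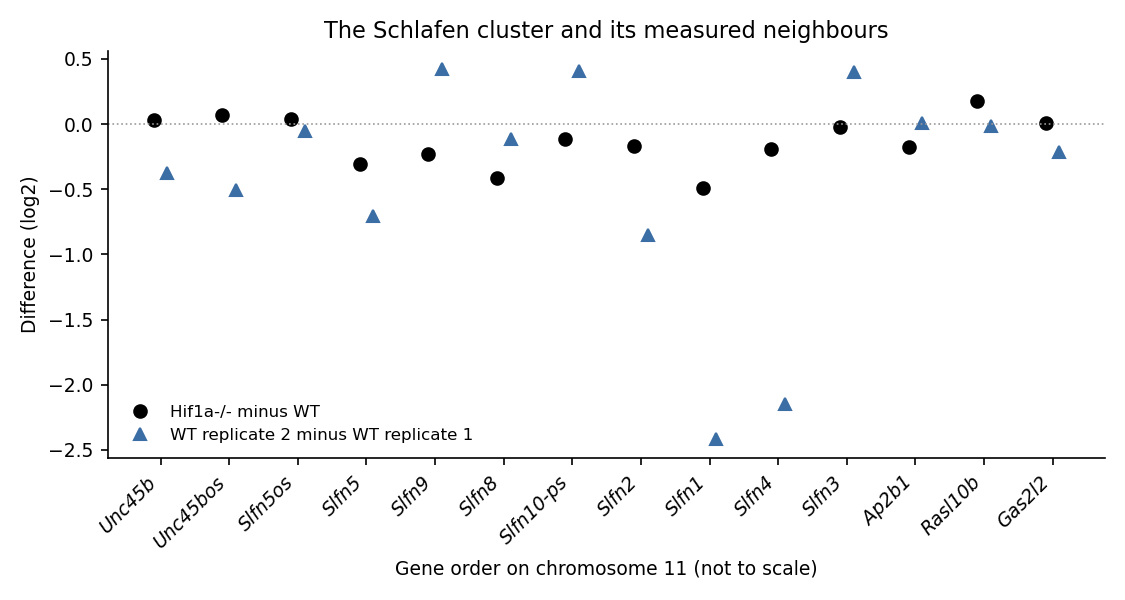
Differences in log2 units for the Schlafen genes and the 3 nearest measured genes on each side, in gene order on chromosome 11, with Hif1a-/- minus WT as black circles and WT replicate 2 minus WT replicate 1 as blue triangles. Slfn1 (-2.42) and Slfn4 (-2.15) stand far below their neighbours in the difference between WT arrays, while the differences between genotypes lie between -0.49 and 0.18.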

How the data were processed

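RNA of 4 samples was measured on Affymetrix whole-transcript arrays. The deposited values are log2 expression made by the authors with RMA in Affymetrix Expression Console 1.1, per the submitters' processing notes. RMA corrects background, normalizes arrays by quantiles and summarises probes, and it draws differences of dim genes together. Its other settings are not stated in those notes.

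Samples were grouped by title. Of 35556 probe sets, 21789 carried 1 symbol, 1621 several and 12146 were unnamed here. The highest-mean set per gene left 19938 genes, and Entrez numbers found 19856 of them in the RefSeq table of GRCm38.p6. Genotype was tested with limma 3.58.1 (lmFit, eBayes) in R 4.3.3 on all 4 arrays, two-sided, adjusted by Benjamini-Hochberg at 0.05; the fit had 2 residual degrees of freedom and 4.46 from the prior. With 2 arrays a group, no exact permutation p can be under 0.333. The number of arrays limits the precision. The procedure was tested on simulated data.

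The members and 10 gene lists (106 entries, 96 measured) were chosen with earlier results of these data known. The p-values of the members are therefore descriptive. Named genes were all members and relatives, the 3 largest differences of each list, fixed examples, cluster neighbours and the 5 closest profiles. Kit was added as a check of the sort, and the text marks each further name taken after its values were known. Promoters were aligned globally with Biopython 1.88, and identity is matches over alignment length. Protein identity was not analysed here. Replicate numbers were checked for pairing, and the correlation of deviations between same-numbered arrays over genes was -0.00719.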

Additional observations from a re-analysis of the deposited data

How the results depend on the processing

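Under the 10 alternatives that kept all arrays (filters at the 25th percentile and median, renormalization, centred medians, a floor, variance trends, array weights, mean of probe sets, replicate block), 0 members passed the adjusted limma test. Only renormalization and centred medians could change a member's difference or the overlap of its groups. Under both, all 7 members kept their direction, and the counts of members with groups apart stayed at 2 lower and 0 higher. The share of all genes apart and lower rose from 9.05% to 13% with renormalization and 12.3% with centred medians. The share apart and higher went from 15.7% to 14% and 11.5%. The other alternatives left the differences and the overlap of the members unchanged by construction, so they do not test them. The number of genes past an adjusted p of 0.05, 0 as reported, was 1 with a variance trend, 2 with a robust trend and 47 with the replicate block, which moved no member past 0.05. The labels do not say that the numbers pair samples. It was 0 at an adjusted p of 0.1, 2 at 0.25, and 334 at an unadjusted p of 0.05.

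Leaving out 1 array at a time gave 2 to 1442 genes past 0.05, 2 to 6 members apart and lower, 0 to 4 apart and higher, and a member median of -0.59 to 0.045, where both extremes of the median came from leaving out a WT array. The ranges of the member differences were -1.70 to 0.72 for Slfn1, -0.59 to 0.26 for Slfn2, -0.22 to 0.18 for Slfn3, -1.27 to 0.88 for Slfn4, -0.66 to 0.045 for Slfn5, -0.47 to -0.35 for Slfn8 and -0.44 to -0.02 for Slfn9. Slfn3 also turned without Hif1a-/- replicate 2 (0.10). The cause of the turns was not tested. The counts of members apart are to be read beside all genes, many of which were apart once an array was left out. Without Hif1a-/- replicate 1, 19.5% of all genes were apart and lower and 31.4% apart and higher. Without Hif1a-/- replicate 2 these shares were 19.7% and 30.4%. In both fits 2 members were apart and lower and 0 apart and higher. The shares were 32.3% and 43% without WT replicate 1, and 30.7% and 42.5% without WT replicate 2. No member had another probe set to compare. Genotypes of 2 arrays each cannot be examined for a sample that stands apart within a group.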

Other observations

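The measured genes beside the Schlafen cluster on chromosome 11 did not show the split of Slfn1 and Slfn4. Toward Slfn5, the difference between the WT arrays, replicate 2 minus replicate 1, was -0.38 for Unc45b, -0.50 for Unc45bos and -0.05 for Slfn5os, a transcript that overlaps Slfn5. Beyond Slfn3 it was 0.01 for Ap2b1, a subunit of the clathrin adaptor, -0.01 for Rasl10b and -0.21 for Gas2l2. Between genotypes these 6 genes differed by -0.17 to 0.18, and the groups were apart in Ap2b1 (lower in Hif1a-/- cells) and Rasl10b (higher). Slfnl1, a Schlafen-like gene on chromosome 4, read 8.36 and 8.51 on the Hif1a-/- arrays, against 8.45 and 8.36 on the WT arrays.

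Within the cluster, some genes that lie next to each other differed in opposite ways between the WT arrays. Slfn4 and Slfn3 are neighbours, and their values were -2.15 and 0.40. Slfn10-ps and Slfn2 are neighbours as well, with 0.41 and -0.85.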
